A study of Mus musculus with 6 samples.

Results

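Genes of tuft cell output and architecture were followed in sorted cortical thymic epithelial cells (cTEC). The 9 genes were Chat, Il25, Il17rb, Dclk1, Avil, Espn, Sh2d6, Bmx and L1cam, chosen by symbol from 39179 genes with a count entry, with the difference between the 2 cTEC subsets already known. The question the libraries address is how cTEC that express the chemokine gene Cxcl12 differ from cTEC that do not, and the 9 genes describe the tuft cell side of that difference. RNA came from untreated mice 10 weeks of age on the C57BL/6 background, all carrying the knock-in reporter Cxcl12::DsRed, in which the red protein DsRed marks cells that express Cxcl12. Experiments A, B and C were alike: in each, CD45-EpCAM1+UEA1-Ly51+ cells were sorted into a DsRed negative and a DsRed positive fraction, called here Cxcl12DsRed- cTEC and Cxcl12DsRed+ cTEC, giving 3 libraries of each and 6 in all. CD45 is a leukocyte protein, EpCAM1 an epithelial one, UEA1 a lectin that marks medullary epithelium, and Ly51 the surface peptidase that marks cTEC. The gate holds no tuft cell marker, and the subsets differ in the sort only by the reporter.

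Tuft cells are rare epithelial cells of gut, airway and thymic medulla that carry a stiff bundle of microvilli and sense their surroundings with the machinery of taste receptors. Once triggered they release acetylcholine, made by the enzyme that Chat encodes, together with lipid mediators and the cytokine IL-25, which acts on innate lymphoid and natural killer T cells of the type 2 response. Their microvilli rest on actin bundles held by proteins such as advillin and espin, and a set of kinases and adaptors better known from blood cells is also transcribed in them.

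Values are CPM (counts relative to library size), with library sizes set by the trimmed mean of M-values method, and folds are Cxcl12DsRed- cTEC over Cxcl12DsRed+ cTEC. Depth ranged from 34574900 to 51042679 counts in genes. Of 12 cTEC markers 9 had every Cxcl12DsRed- library below every Cxcl12DsRed+ library, beside 9.32% of all tested genes. The 12 summed to 9230 to 11774 CPM against 13443 to 24658 CPM, with Foxn1, Psmb11 and Prss16 detected in all 6 libraries. The DsRed transcript had 580 to 1129 counts in Cxcl12DsRed- cTEC and 45495 to 79903 counts in Cxcl12DsRed+ cTEC. Markers of medullary epithelium, 10 in all, summed to 11307, 10983 and 7195 CPM in Cxcl12DsRed- cTEC and to 12341, 13351 and 3167 CPM in Cxcl12DsRed+ cTEC. Every Cxcl12DsRed- library was above every Cxcl12DsRed+ library for 3 of the 9 tested, beside 9.73% of all tested genes, and below for 0. Their part in the values of the tuft cell genes was not tested. The library of Cxcl12DsRed+ cTEC from experiment C stood apart by endothelial transcripts, the 14 markers of which summed to 6141 CPM there, to 799 and 801 CPM in the other Cxcl12DsRed+ libraries and to 55.2 to 116 CPM in Cxcl12DsRed- cTEC. In sorted bulk cells, fewer cells that express a gene and less RNA of it per cell cannot be told apart. Replicates are the 3 experiments, so every p-value rests on how much these 6 libraries varied, and some of that variation may be technical.

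All 9 genes stood higher in every Cxcl12DsRed- library than in every Cxcl12DsRed+ library, a pattern found in 9.73% of the 15576 genes tested. Chat passed edgeR's quasi-likelihood test at an adjusted p under 0.05, and the other 8 genes did not. This test called 0.623% of all tested genes and 0.449% as higher in Cxcl12DsRed- cTEC. With the experiment as a replicate block 1 of the 9 passed, beside 0.469% of all genes, and with edgeR's likelihood ratio test and with DESeq2 all 9 passed, beside 5.65% and 6.94% of all genes. Since the 9 genes were selected with this contrast in view, these counts describe them and nothing is read from them. The median fitted log2 fold change of the 9 was 6.31, also with Il25 at its lower bound, beside 0.02 over all tested genes. Among the 8 genes with any count in Cxcl12DsRed+ cTEC it ran from 2.62 for L1cam to 9.26 for Chat.

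**Figure D1:**
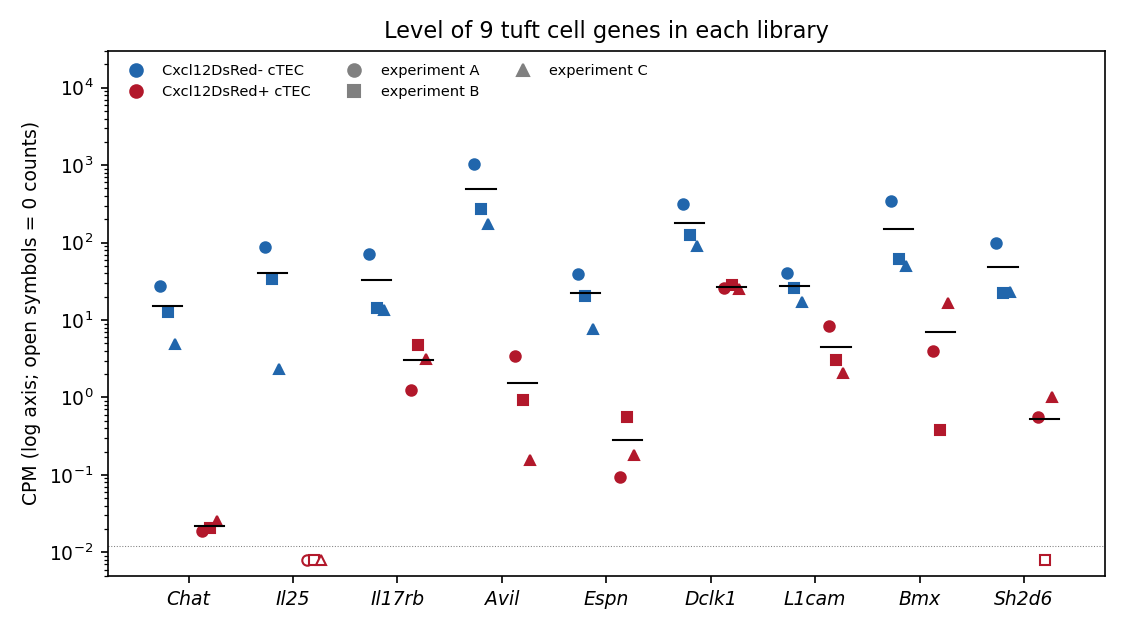
Level of each of the 9 genes in CPM on a log axis, 1 symbol per library, with blue for Cxcl12DsRed- cTEC, red for Cxcl12DsRed+ cTEC, shapes for the experiments and black lines for the means of 3 libraries; open symbols at the bottom are libraries with 0 counts. No red symbol reaches a blue symbol of the same gene, and the circle of experiment A is the highest blue symbol for all 9 genes.

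Chat (ENSMUSG00000021919, GRCm38 chr14:32408203-32465989, minus strand), which encodes choline acetyltransferase, had 27.5, 12.6 and 4.92 CPM in Cxcl12DsRed- cTEC of experiments A, B and C. These values came from 1193, 413 and 200 counts. In Cxcl12DsRed+ cTEC it had 1 count in each library, or 0.0189, 0.0209 and 0.0258 CPM. The groups were far apart: the lowest Cxcl12DsRed- library held 191 times the level of the highest Cxcl12DsRed+ library. Pooled over libraries the ratio was 720 (95% counting interval 246 to 3493), an interval that covers counting error only, as do all floors and intervals given here, because amplified reads are not independent molecules. Chat rose in Cxcl12DsRed- cTEC to 15.0 ± 11.5 CPM (SD, n = 3), although the call was lost without any single library other than the Cxcl12DsRed- library of experiment C, and with the experiment as a replicate block. The gene that encodes the vesicular acetylcholine transporter, Slc18a3, lies inside the Chat gene and was not analysed here.

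Most other genes of acetylcholine handling were at levels too low to test. Of 27 listed genes with an entry (choline transporters, choline kinases, esterases and receptors) 11 were expressed highly enough to test and 0 passed, with 2 at an unadjusted p under 0.05 (11.8% of all tested genes), 2 passing the likelihood ratio test and 2 passing DESeq2. Every Cxcl12DsRed- library was above every Cxcl12DsRed+ library for 3 of the 11 and below for 1, the latter a pattern of 9.32% of all tested genes, and their median log2 fold change was 0.61. Slc44a4, a choline transporter family gene, had 71.4, 46.6 and 18.7 CPM in Cxcl12DsRed- cTEC and 3.23, 1.88 and 0.0773 CPM in Cxcl12DsRed+ cTEC. Chrna10, a nicotinic receptor subunit gene, had 17.4, 17.5 and 2.09 CPM against 0.529, 0.229 and 0 CPM. The likelihood ratio test called both, and they are named after their values were seen. Ache, whose product breaks acetylcholine down, had 43.3 ± 65.1 CPM in Cxcl12DsRed- cTEC and 109 ± 33.7 CPM in Cxcl12DsRed+ cTEC (adjusted p = 0.797, edgeR's quasi-likelihood test). The broadly expressed choline transporter-like genes Slc44a1, with 73.4 against 48.2 CPM, and Slc44a2, with 147 against 128 CPM, did not pass either.

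Il25 (ENSMUSG00000040770, chr14:54932695-54935837, plus strand), the gene of the tuft cell cytokine IL-25, had 87.2, 33.5 and 2.34 CPM in Cxcl12DsRed- cTEC. Counts were 3778, 1101 and 95. In Cxcl12DsRed+ cTEC it had 0 counts in all 3 libraries. Between the means of 3 libraries the difference was at least 626-fold, or 9.29 on the log2 scale, from a floor of 3 counts per library (mean 0.0655 CPM). This is no bound for each experiment, and it would be lower for B, at 33.5 CPM, and for C, at 2.34 CPM. The spread among the Cxcl12DsRed- libraries was as large as the mean, 41.0 ± 43.0 CPM (n = 3). Its level in experiment A was 37.3 times that in experiment C, whereas the next highest such ratio among the 9 genes was 6.84, for Bmx.

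Il17rb (ENSMUSG00000015966, chr14:29996135-30008896, minus strand) encodes the subunit of the IL-25 receptor that binds the cytokine. It had 71.9, 14.1 and 13.5 CPM in Cxcl12DsRed- cTEC and 1.25, 4.78 and 3.12 CPM in Cxcl12DsRed+ cTEC. The means were 33.2 ± 33.6 and 3.05 ± 1.77 CPM (n = 3 each), with a fitted log2 fold change of 3.44 (SE 0.90). Within experiments the fold was 57.7 in A, 2.96 in B and 4.33 in C. The groups did not overlap, and the lowest Cxcl12DsRed- value was 2.83 times the highest Cxcl12DsRed+ value. Unlike Il25, its receptor gene was therefore detected in every library of both subsets.

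Il17rb starts 126 bases from the start of Chdh, which runs the other way. The bases between them, GRCm38.p6 chr14:30008897-30009022 on the minus strand, are shown because Il17rb and Chdh share them, with the GC box GGGCGG in capitals.

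Il17rb: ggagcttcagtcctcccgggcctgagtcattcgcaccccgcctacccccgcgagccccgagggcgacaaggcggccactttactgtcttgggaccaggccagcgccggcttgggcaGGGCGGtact

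The interval is 69.8% G and C, and a GC box on either strand was found in 32.7% of the 32851 windows of 250 bases before a start in RefSeq, which are longer than this interval. Chdh, a choline dehydrogenase gene, had 30.5, 1.22 and 27.2 CPM in Cxcl12DsRed- cTEC and 9.20, 2.65 and 4.30 CPM in Cxcl12DsRed+ cTEC. It thus overlapped between the subsets (adjusted p = 0.612). Actr8, on the opposite strand, shares 141 exon bases with Il17rb, and strand-specific counting is not given in the sources used here. Actr8 had 58.2 against 57.6 CPM, a log2 difference of 0.01.

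Around this ligand and receptor, 18 of 23 genes of the IL-17 family and the type 2 axis could be tested. Il33, the gene of the epithelial alarm cytokine IL-33, rose, as did 0.449% of all tested genes, and the other 17 did not pass. Il33 had 250, 153 and 234 CPM in Cxcl12DsRed- cTEC against 66.8, 50.3 and 72.6 CPM in Cxcl12DsRed+ cTEC, a log2 fold change of 1.75 (SE 0.26, adjusted p = 0.0496). Its call sat at the threshold: the list had 0 calls without any single library, with library totals in place of the scaling, and with the replicate block (adjusted p = 0.0529). The median of the list was 0.26. The sum of the 9 fibroblast markers also stood higher, at 3869, 3718 and 4888 CPM in Cxcl12DsRed- cTEC and 1740, 1894 and 1273 CPM in Cxcl12DsRed+ cTEC. Its largest part was Dcn, with 3469, 3092 and 3118 against 1491, 1512 and 633 CPM. Dcn was the only 1 of the 9 with every Cxcl12DsRed- library higher, a pattern of 9.73% of all tested genes. The others overlapped or went the other way, and none of Col1a1, Col1a2 and Col3a1 was at 0. The part of fibroblast RNA in the values of Il33 was not tested. Il17rc with 127 against 97.9 CPM, Il13ra1 with 276 against 264 CPM and Stat6 with 147 against 154 CPM, which carry IL-17 and IL-13 signals, did not pass. The markers of ILC2 and NKT2 cells, which respond to IL-25, summed to 78.9 to 118 CPM in Cxcl12DsRed- cTEC and to 68.5 to 92.6 CPM in Cxcl12DsRed+ cTEC. Every Cxcl12DsRed- library was higher for 1 of the 6 tested, beside 9.73% of all tested genes. The sum was mostly Rora, with 78.8, 41.3 and 80.0 against 72.2, 57.7 and 60.8 CPM. Il1rl1, another defining marker, had 0, 0 and 1.01 against 0, 0 and 0.0773 CPM. The part of RNA from such cells in the values of Il17rb was not tested.

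Avil (ENSMUSG00000025432, chr10:127000709-127020994, plus strand) encodes advillin, an actin-binding protein of the villin family. It had 1034, 271 and 175 CPM in Cxcl12DsRed- cTEC and 3.46, 0.939 and 0.155 CPM in Cxcl12DsRed+ cTEC. Means were 493 ± 471 and 1.52 ± 1.73 CPM (n = 3 each), with a log2 fold change of 8.32 (SE 1.37). Within experiments the folds were 299 in A, 289 in B and 1129 in C, the last over only 6 counts in the Cxcl12DsRed+ library. Both subsets were ordered alike over the experiments, A highest and C lowest, and the lowest Cxcl12DsRed- library held 50.5 times the highest Cxcl12DsRed+ library. Avil did not pass the unpaired test, and it was the only one of the 9 genes to pass with the experiment as a replicate block. It shares 165 exon bases with Tsfm on the opposite strand, which had 32.8 against 40.9 CPM.

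The bases upstream of Avil are shown because tuft cells depend on the POU factor encoded by Pou2f3, and POU factors bind the octamer ATGCAAAT. The 250 bases before the start, GRCm38.p6 chr10:127000459-127000708 on the plus strand, are given as in RefSeq. Of the 12 windows of the 8 genes in the promoter table this was the only one with the octamer less its last base, ATGCAAA, which is in capitals and occurs once on each strand.

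Avil: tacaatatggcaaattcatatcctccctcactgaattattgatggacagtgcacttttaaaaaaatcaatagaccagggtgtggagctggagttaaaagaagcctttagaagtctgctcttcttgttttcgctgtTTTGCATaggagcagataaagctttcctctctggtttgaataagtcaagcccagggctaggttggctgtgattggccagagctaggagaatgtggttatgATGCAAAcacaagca

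This motif was found on either strand in 4.12% of 32851 promoter windows of the same length. The matches start 15 bases before the start on the plus strand and 115 bases before it on the minus strand. The full octamer was found in 1.60% of all windows and in 0 of the 12. The octamer less its first base, TGCAAAT, was found in 3.56% of all windows and among the 12 in that of Chat, where it lies within the first exon as GENCODE draws it. These shorter motifs were searched beside the full octamer, which they overlap, and Il25 has no window in the table. A match of letters is a description and shows no binding.

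Espn (ENSMUSG00000028943, chr4:152120331-152152371, minus strand) encodes espin, which bundles actin in microvilli and in the stereocilia of hair cells. It had 38.8, 20.7 and 7.62 CPM in Cxcl12DsRed- cTEC and 0.0945, 0.563 and 0.180 CPM in Cxcl12DsRed+ cTEC. The groups were 13.5 times apart at their nearest values, with means of 22.4 ± 15.7 and 0.279 ± 0.249 CPM (n = 3 each) and a log2 fold change of 6.31 (SE 1.07). Within experiments the difference was 411-fold in A, 36.8-fold in B and 42.3-fold in C.

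Dclk1 (ENSMUSG00000027797, chr3:55242364-55539068, plus strand), a kinase gene of the doublecortin family whose product associates with microtubules, is the classical marker of mouse tuft cells. It had 316, 125 and 91.4 CPM in Cxcl12DsRed- cTEC and 25.5, 28.5 and 25.05 CPM in Cxcl12DsRed+ cTEC. Of the 9 genes it had the highest mean CPM in Cxcl12DsRed+ cTEC, and its spread there was the smallest of the 8 genes with any count, with a coefficient of variation of 7.15% against 68.2% in Cxcl12DsRed- cTEC. Its log2 fold change was 2.75 (SE 0.48), from folds of 12.4 in A, 4.39 in B and 3.65 in C. The nearest values of the groups were 3.21 times apart.

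Among other genes of microvilli and actin bundling 24 of 29 could be tested and 1, Cdhr5, rose, as did 0.449% of all tested genes. Its product, a cadherin, links the tips of neighbouring microvilli. It had 90.6, 57.4 and 25.6 CPM in Cxcl12DsRed- cTEC against 0.0945, 0.1251 and 0.0773 CPM in Cxcl12DsRed+ cTEC, with a log2 fold change of 9.14 (SE 0.69, adjusted p = 0.0295 in edgeR's quasi-likelihood test). The list had this number of calls also with the block and without the Cxcl12DsRed- library of experiment C, and 0 calls without any other single library. Every Cxcl12DsRed- library was above every Cxcl12DsRed+ library for 8 of the 24 and below for 3, beside 9.73% and 9.32% of all tested genes. The median log2 fold change was 0.46. The members with the highest levels per kilobase did not pass: Gsn, the gene of the actin-severing protein gelsolin, had 5305 ± 3121 against 2219 ± 810 CPM (adjusted p = 0.330) and was highest in the Cxcl12DsRed- library of experiment C, as was the fibroblast sum, and Ezr, whose product ties actin to the membrane, had 697 ± 92.4 against 392 ± 141 CPM (adjusted p = 0.312). Cdhr2, the partner of Cdhr5 at microvillus tips, had 99.97, 37.5 and 48.9 CPM against 0.643, 0.209 and 0 CPM and was called by the likelihood ratio test; it is named after its values were seen.

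Sh2d6 (ENSMUSG00000052631, chr6:72513641-72521707, minus strand) encodes an adaptor with an SH2 domain, the module that binds phosphorylated tyrosine. It had 98.5, 22.3 and 22.7 CPM in Cxcl12DsRed- cTEC and 0.567, 0 and 1.01 CPM in Cxcl12DsRed+ cTEC. Means were 47.8 ± 43.9 and 0.524 ± 0.504 CPM (n = 3 each), with a log2 fold change of 6.52 (SE 1.47). Experiments B and C had almost the same Cxcl12DsRed- level and experiment A stood above them, and the groups were 22.2 times apart at their nearest values.

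Bmx (ENSMUSG00000031377, chrX:164192842-164258193, minus strand) encodes a non-receptor tyrosine kinase of the Tec family and is also transcribed in arterial endothelium. It had 343, 60.9 and 50.2 CPM in Cxcl12DsRed- cTEC and 3.95, 0.375 and 16.8 CPM in Cxcl12DsRed+ cTEC. The fold was 86.8 in A, 162 in B and 2.98 in C, so the separation in experiment C was far smaller than in the others. The Cxcl12DsRed+ library of experiment C, in which Bmx was highest for that subset, was also the library with 6141 CPM of endothelial markers. In Cxcl12DsRed- cTEC, where Bmx was at 50.2 to 343 CPM, the endothelial sum was lower than in any Cxcl12DsRed+ library, at 55.2 to 116 CPM, and both were highest in experiment A. All of the 14 endothelial markers but 1 had every Cxcl12DsRed- library below every Cxcl12DsRed+ library, beside 9.32% of all tested genes. None of Pecam1, Cdh5 and Kdr was at 0 in any library. Over all libraries the log2 fold change of Bmx was 4.43 (SE 1.42), and without that library it was 6.09. The part of endothelial RNA in the Bmx counts was not tested.

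**Figure D2:**
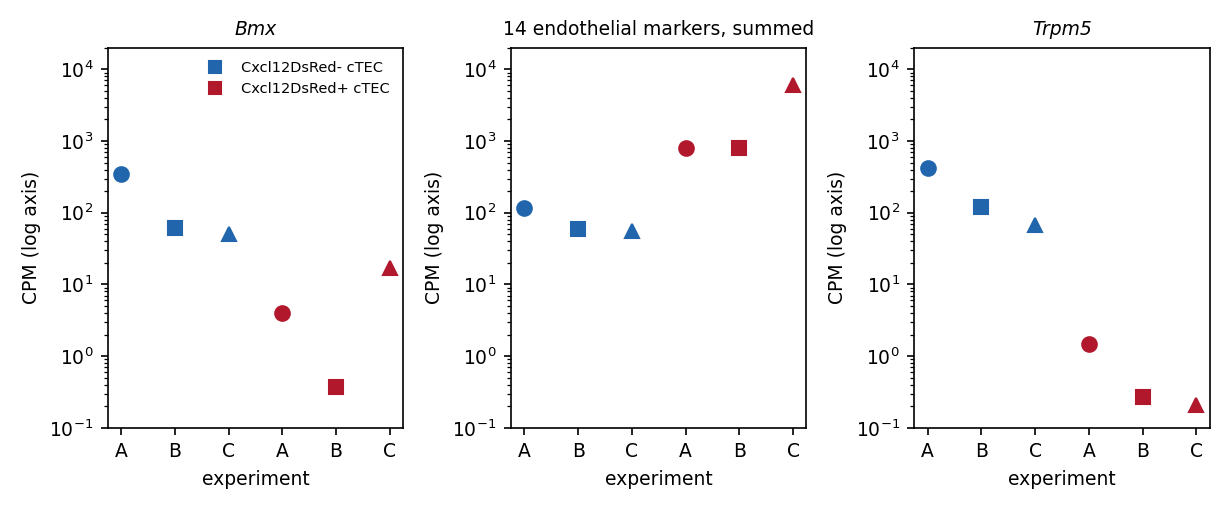
Level in CPM on a log axis in each library for Bmx, for the sum of 14 endothelial markers and for the taste channel gene Trpm5, with blue for Cxcl12DsRed- cTEC, red for Cxcl12DsRed+ cTEC and experiments A, B and C along the x axis. In the Cxcl12DsRed+ library of experiment C, Bmx reached 16.8 CPM and the endothelial sum 6141 CPM, while Trpm5 stood at 0.206 CPM.

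L1cam (ENSMUSG00000031391, chrX:73853778-73896105, minus strand) encodes an adhesion protein of the immunoglobulin superfamily, best known from growing axons. It had 39.9, 26.2 and 16.9 CPM in Cxcl12DsRed- cTEC and 8.30, 3.09 and 2.06 CPM in Cxcl12DsRed+ cTEC. The means were 27.7 ± 11.6 and 4.48 ± 3.34 CPM (n = 3 each) and the log2 fold change 2.62 (SE 0.68). Its groups came nearest to each other of all 9 genes, the lowest Cxcl12DsRed- value being 2.03 times the highest Cxcl12DsRed+ value. Experiments A, B and C gave folds of 4.81, 8.49 and 8.18. Arhgap4 shares 100 exon bases with L1cam on the same strand and had 51.5, 0.943 and 5.56 CPM against 2.02, 2.92 and 0.0258 CPM, values that overlapped between the subsets. Of the neuron and Schwann cell markers Elavl3 was at 0 in all 6 libraries. The 12 markers summed to 36.7 to 207 CPM in Cxcl12DsRed- cTEC and 13.7 to 43.2 CPM in Cxcl12DsRed+ cTEC. For 1 of the 5 tested every Cxcl12DsRed- library was higher, beside 9.73% of all tested genes. Their part in the L1cam values was not tested.

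Few members of the wider sets around these signalling genes passed. Of 34 tyrosine kinases, SH2 adaptors and their partners 30 could be tested and 1 passed, beside 0.623% of all tested genes. The list had 1 call without the Cxcl12DsRed- library of experiment C and 0 without any other single library, and its median log2 fold change was 0.23. Sh2d7, an SH2 adaptor gene like Sh2d6, had 194, 45.7 and 30.7 CPM against 0.662, 0.0417 and 0.0773 CPM and passed the quasi-likelihood test only with the replicate block (adjusted p = 0.0222, and 0.0599 without it). Vav1, a guanine nucleotide exchange factor gene of blood cells, had 200, 76.1 and 33.0 CPM against 7.41, 13.5 and 0.180 CPM (adjusted p = 0.2998). The 10 myeloid markers summed to 187 to 1002 CPM in Cxcl12DsRed- cTEC, mostly Lyz2, and to 45.8 to 114 CPM in Cxcl12DsRed+ cTEC. Every Cxcl12DsRed- library was above every Cxcl12DsRed+ library for 3 of the 8 tested, beside 9.73% of all tested genes, and below for 0. The others overlapped. Of the defining myeloid markers Lyz2 had 462, 803 and 128 CPM in Cxcl12DsRed- cTEC and 19.1, 31.9 and 80.8 CPM in Cxcl12DsRed+ cTEC, and Itgam 46.3, 15.7 and 6.44 CPM against 0.510, 3.07 and 0.387 CPM, with no overlap between the subsets. Csf1r had 0.162, 16.2 and 0.320 CPM against 0.416, 5.03 and 0.0258 CPM, which overlapped. The part of myeloid RNA in these values was not tested.

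Among relatives and partners of L1cam and Dclk1 8 of 11 genes could be tested and 0 passed, with 2 at an unadjusted p under 0.05, beside 11.8% of all tested genes, and 1 called by each of the likelihood ratio test and DESeq2. That gene was Nrp1, a co-receptor for semaphorins and VEGF, with 69.4, 37.5 and 95.7 CPM in Cxcl12DsRed- cTEC and 175, 141 and 854 CPM in Cxcl12DsRed+ cTEC (adjusted p = 0.227 in the quasi-likelihood test). Nrp1 was highest in the library with the endothelial transcripts. Nrcam, a close relative of L1cam, had 11.4 ± 9.96 against 10.8 ± 6.39 CPM, and Ank3, whose product anchors L1 family proteins to the cytoskeleton, had 65.1 ± 24.4 against 63.7 ± 18.8 CPM.

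**Figure D3:**
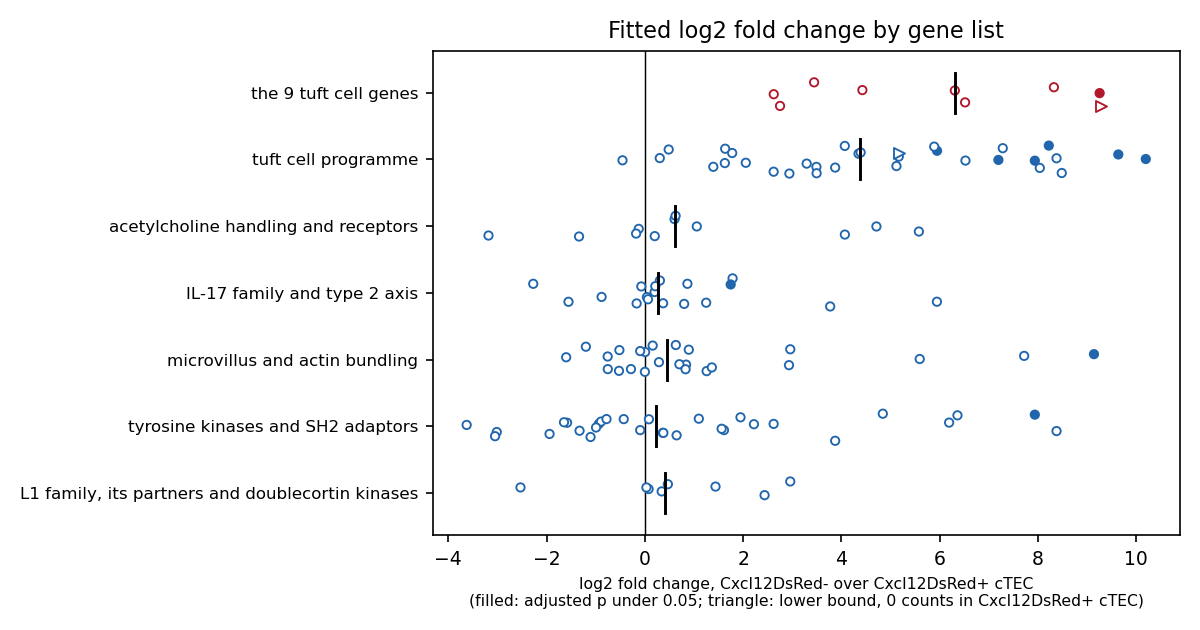
Fitted log2 fold change of each tested gene, Cxcl12DsRed- over Cxcl12DsRed+ cTEC, by list, with the 9 genes on top and 6 surrounding lists below; filled symbols passed edgeR's quasi-likelihood test at an adjusted p under 0.05, triangles are lower bounds for genes with 0 counts in Cxcl12DsRed+ cTEC, and black bars are medians. The medians are 6.31 for the 9 genes, 4.37 for the tuft cell programme and 0.23 to 0.61 for the other lists.

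The rest of the tuft cell programme (taste transduction, lipid mediators, transcription factors and surface proteins) had the most calls of the 6 lists, although the list was written with results of these libraries in view and is no independent evidence of its direction. Of 36 listed genes 32 could be tested, 6 rose and 0 fell, beside 0.449% of all tested genes called higher. For 25 every Cxcl12DsRed- library was above every Cxcl12DsRed+ library, beside 9.73% of all tested genes. The likelihood ratio test called 21 of the 32, beside 5.65% of all tested genes, and the median log2 fold change was 4.37. Trpm5, the cation channel of taste transduction, had 415, 119 and 66.9 CPM in Cxcl12DsRed- cTEC and 1.49, 0.271 and 0.206 CPM in Cxcl12DsRed+ cTEC (log2 fold change 8.22, adjusted p = 0.0466). Gng13, a G protein gamma subunit gene of the same pathway, had 92.4 ± 77.5 against 0.112 ± 0.0543 CPM (9.64, adjusted p = 0.0319). Hepacam2 had 87.4 ± 72.0 against 0.595 ± 0.0803 CPM (7.20, adjusted p = 0.0319), and Alox5ap, needed to make leukotrienes, had 140 ± 140 against 2.26 ± 0.385 CPM (5.95, adjusted p = 0.0429). Gfi1b, a transcription factor gene, had 1318 counts in Cxcl12DsRed- cTEC and 1 in Cxcl12DsRed+ cTEC, a ratio of 1576 (95% counting interval 282 to 62279). Krt18, a keratin gene of simple epithelium that other cells of the gate also express, had 2635 ± 741 against 3610 ± 985 CPM (adjusted p = 0.666). The list had 10 calls without the Cxcl12DsRed- library of experiment C and 0 without any other single library.

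Levels of different genes were compared per kilobase of exon. In Cxcl12DsRed- cTEC the mean order was Avil at 145, Bmx at 49.0, Il25 at 38.6, Sh2d6 at 28.3, Dclk1 at 11.6, Il17rb at 8.95, L1cam at 3.76, Chat at 3.19 and Espn at 2.71 CPM per kilobase. The ranges of all neighbours in this order overlapped. Within each of the 3 libraries Avil came first and Espn last, and Sh2d6, Dclk1 and Il17rb followed each other in this order. Il25 moved most, from the third place in experiment A and the second in B to place 7 in C. With the longest transcript as the length Avil was still first in all 3, but the last place went to L1cam in A and to Chat in B.

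In Cxcl12DsRed+ cTEC the order was another one. Bmx stood at 2.28, Dclk1 at 1.72, Il17rb at 0.822, L1cam at 0.610, Avil at 0.447, Sh2d6 at 0.310, Espn at 0.0338 and Chat at 0.00464 CPM per kilobase, with Il25 at 0. The ranges were apart for Dclk1 over Il17rb, Espn over Chat and Chat over Il25, and overlapped for the other neighbours. With the longest transcript as the length, Dclk1 at 3.31 came before Bmx at 2.35 CPM per kilobase. The genes with the narrowest gap between the subsets' nearest values, L1cam, Il17rb, Bmx and Dclk1, were also those with the highest levels in Cxcl12DsRed+ cTEC.

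The make-up of the 9 genes also differed between the subsets. Their CPM summed to 2057, 587 and 384 in Cxcl12DsRed- cTEC and to 43.2, 38.3 and 48.4 in Cxcl12DsRed+ cTEC. Avil gave 50.3%, 46.2% and 45.4% of that sum in Cxcl12DsRed- cTEC and 8.01%, 2.45% and 0.319% in Cxcl12DsRed+ cTEC. Dclk1 gave 15.4%, 21.4% and 23.8% in the first and 59.2%, 74.5% and 51.7% in the second. So the sum in Cxcl12DsRed+ cTEC, which was nearly level over the experiments, was mostly Dclk1, with Bmx giving 34.8% of it in experiment C.

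Avil, the reference here, had 183, 45 and 6 counts in Cxcl12DsRed+ cTEC. Ratios to it in that subset of experiment C thus rest on few counts. Relative to Avil in the same library, Dclk1 stood at 0.306, 0.463 and 0.524 in Cxcl12DsRed- cTEC and at 7.38, 30.4 and 162 in Cxcl12DsRed+ cTEC. L1cam stood at 0.0386, 0.0967 and 0.0967 in the first and at 2.40, 3.29 and 13.3 in the second. Il17rb stood at 0.0696, 0.0522 and 0.0774 in the first and at 0.361, 5.09 and 20.2 in the second. Bmx stood at 0.332, 0.225 and 0.288 in the first and at 1.14, 0.400 and 109 in the second. Each of these genes was higher relative to Avil in every Cxcl12DsRed+ library than in any Cxcl12DsRed- library. Espn did not share this, with 0.0375, 0.0765 and 0.0437 against 0.0273, 0.600 and 1.17. Chat was near constant relative to Avil in Cxcl12DsRed- cTEC, at 0.0266, 0.0464 and 0.0282, whereas Il25 stood at 0.0844, 0.124 and 0.0134.

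**Figure D4:**
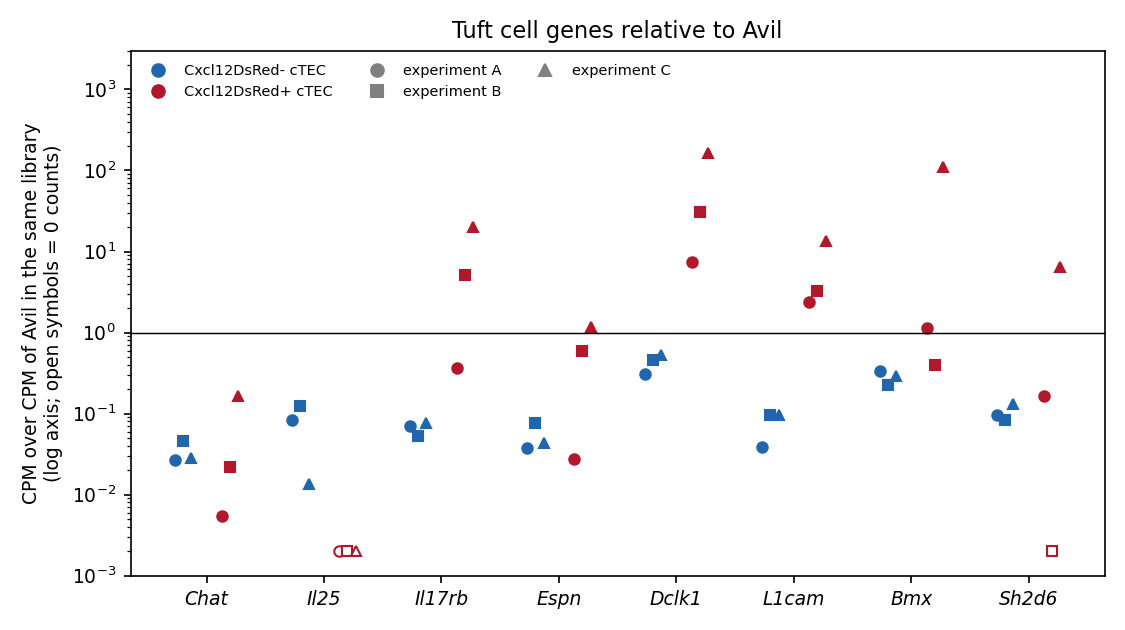
CPM of 8 genes divided by the CPM of Avil in the same library, on a log axis, with blue for Cxcl12DsRed- cTEC, red for Cxcl12DsRed+ cTEC and shapes for the experiments; open symbols are 0 counts and the line marks a ratio of 1. The blue symbols of each gene except Il25 lie close together, and the red symbols of Dclk1 run from 7.38 to 162. The red triangles are ratios to only 6 counts of Avil.

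The level of the 9 genes also varied among the 3 Cxcl12DsRed- libraries. These values were part of the contrast that the genes were chosen on, so they are a description. All 9 were highest in experiment A, as were 33.4% of all tested genes. The ratio of experiment A to B ran from 1.52 for L1cam to 5.63 for Bmx, with a median of 2.60, and that of A to C from 2.36 for L1cam to 37.3 for Il25, with a median of 5.33. Between B and C the median was 1.55, from 0.981 to 14.3, the highest again being Il25. In experiment C Il25 was thus low beside its companions, while Chat, the other gene absent or nearly so from Cxcl12DsRed+ cTEC, had an A to C ratio of 5.60. Of these libraries that of experiment A had the most counts in genes and that of B the fewest.

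**Figure D5:**
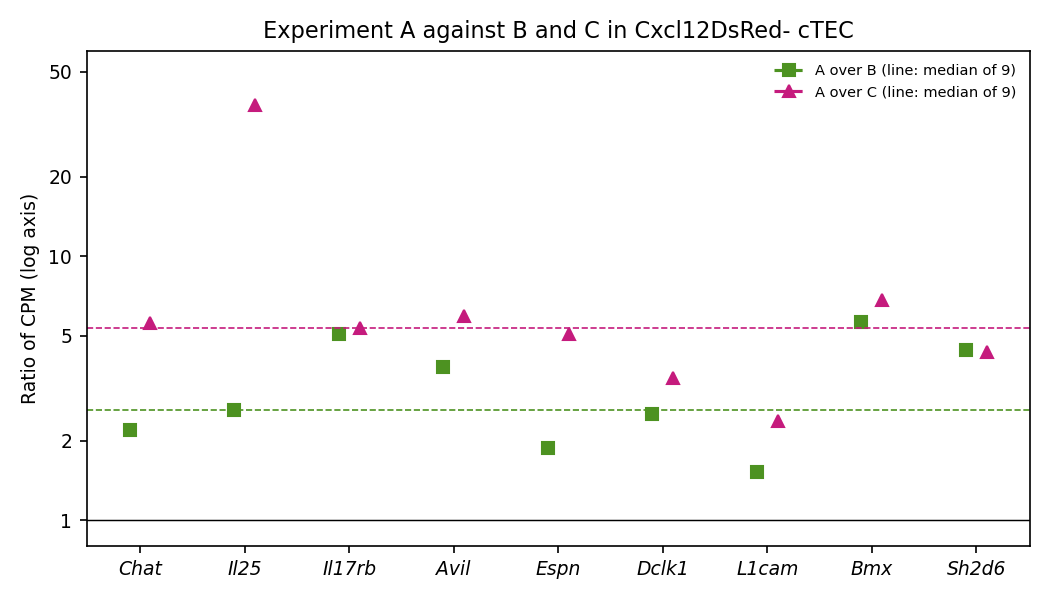
Ratio of the CPM in experiment A to that in experiment B (green squares) and C (pink triangles) for each gene in Cxcl12DsRed- cTEC, on a log axis, with dashed lines at the medians of 2.60 and 5.33. All ratios lie above 1, and the A to C ratio of Il25, 37.3, stands apart from the others, which reach 6.84.

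Microfold cell markers, another specialised epithelial programme, also had their highest sum in experiment A. The 7 markers summed to 2522, 1553 and 754 CPM in Cxcl12DsRed- cTEC and to 19.7, 95.4 and 42.5 CPM in Cxcl12DsRed+ cTEC, led by Gp2 with 1942, 1022 and 669 CPM in the former. Ccl9, with 73.8, 144 and 1.60 CPM, and Ccl20, with 85.2, 243 and 0.541 CPM in Cxcl12DsRed- cTEC, were highest in experiment B instead. One of them, Spib, is also in the tuft cell list. Neuroendocrine markers took another order, with 114, 434 and 9.99 CPM, as did the sum of the mast cell and basophil markers, with 30.04, 200 and 9.76 CPM. That sum was mostly 1 gene, Hdc, with 29.95, 178 and 9.72 CPM in Cxcl12DsRed- cTEC. Of the defining mast cell markers Cpa3 had 0, 6.33 and 0 CPM and Mcpt4 0, 4.99 and 0 CPM there. Tpsb2 was at 0 in all 6 libraries. Every Cxcl12DsRed- library was above every Cxcl12DsRed+ library for 3 of the 7 microfold markers, beside 9.73% of all tested genes. Their part in the values of the 9 genes was not tested.

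For each of the 9 genes the most similar profiles over the 6 libraries were sought among 14411 genes other than the 9, by the root mean square distance between log2(CPM + 0.5) values centred on each gene's mean. The nearest to Avil were Trpm5 at 0.499 and Rgs13 at 0.648, both tuft cell genes. St18 was nearest to Chat at 0.205 and, after Slc34a2 at 0.138, next nearest of these genes to Espn at 0.285. Pou2f3, the gene of the tuft cell lineage factor, was second nearest to Il17rb at 0.427 after Aox4 at 0.402. The nearest to Dclk1 were Bdnf at 0.158 and Sbsn at 0.161, to L1cam Cxadr at 0.197 and Slc13a2 at 0.227, and to Il25 Upk3a at 0.525.

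Pik3r5, a regulatory subunit gene of a phosphoinositide 3-kinase, was nearest to Sh2d6 at 0.167, with Krt20 next at 0.425. The same pair was nearest to Bmx, at 0.912 and 0.906, though Sh2d6, one of the 9, was nearer still at 0.877. Among the 9 themselves Chat and Espn lay closest, at 0.262, and Avil lay farthest from its nearest companion, Sh2d6, at 1.62. With 6 libraries that share the difference between the subsets, these distances are a description only.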

How the data were processed

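RNA-seq of sorted cTEC was used in 6 libraries, 3 per subset, grouped by the sort and experiment in the sample labels. Poly(A) RNA was amplified with a SMARTer Ultra Low Input kit. The authors' pipeline used Trimmomatic 0.36 for trimming, STAR 2.7.3a for alignment on mm10 and HTSeq for counting, and whole-number counts per gene were deposited. For annotation release and strand the setting was not given in the sources used here. Spike-in, summary and reporter entries, 98 in all, were left out. As a percentage of the counts in genes, reads in no gene came to 5.87% to 9.35%, ambiguous reads to 1.21% to 1.38% and multiply aligned reads to 5.61% to 9.07%. GENCODE M21 held 37607 of the 39179 gene IDs.

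Counts were fitted with edgeR 4.0.16 in R 4.3.3 (filterByExpr, minimum count 10, TMM, prior count 0.125, quasi-likelihood test, Benjamini-Hochberg adjustment at 0.05), giving 97 calls among 15576 genes (70 higher, 27 lower in Cxcl12DsRed- cTEC). The study's methods name no pairing. Alternatives were the likelihood ratio test, the experiment as replicate block, DESeq2 1.42.0, limma 3.58.1 with voom, other scalings, filters and prior counts, and leaving out libraries or experiments. Paired libraries come from a shared experiment in the labels, and their deviations correlated at 0.0296, 0.0892 and 0.0810 across genes. On simulated data (3 simulations, 15576 genes, 200 changed) the test recovered 27.3% of 4-fold and 74% of 32-fold changes with 6.35% of calls false, and the likelihood ratio test 43.3% and 84% with 29.6% false. A floor of 3 counts per library bounded genes at 0.

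The 9 genes and all lists were chosen with earlier results of these data known. By rule, the text names the 9 genes, list genes that passed, the 4 list genes of highest CPM per kilobase, defining markers, neighbouring genes and the 2 most similar profiles per gene; others are marked as chosen after their values were seen. Of the genes this rule selects, 2 are not reported here. Promoters were taken from RefSeq on GRCm38.p6 for 8 of the 9 symbols.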

Additional observations from a re-analysis of the deposited data

How the results depend on the processing

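The fitted log2 fold changes of the 9 genes stayed positive under all 162 combinations of gene and alternative. The median of the 9 ran from 5.19 to 6.72 when a library or experiment was left out. With a prior count of 2, Il25 moved to 9.78 and Chat to 7.78. Without single libraries or experiments Bmx ran from 2.66 to 6.50, Il17rb from 1.77 to 4.29, Avil from 7.15 to 9.73 and L1cam from 2.23 to 3.37.

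Numbers of calls depended on the test. Over all genes the likelihood ratio test gave 880, DESeq2 1081 (532 genes with no adjusted p), voom 4 and no filter 168, and leaving out libraries or experiments 0 to 139. Of the 9 genes, the likelihood ratio test and DESeq2 called 9, voom 0 (8 at an unadjusted p under 0.05), no filter 4 and the left-out libraries or experiments 0 to 3, the 3 being Chat, Dclk1 and Il25 without the Cxcl12DsRed- library of experiment C. Where leaving out a library or experiment gave 0 calls over all genes, 1361 to 1850 genes had an unadjusted p under 0.05. The likelihood ratio test with each library left out, chosen after seeing the data, called 6 to 9 of the 9 genes and 766 to 1604 of all genes, 1604 without the Cxcl12DsRed- library of experiment C.

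For the tuft cell programme the likelihood ratio test called 21, DESeq2 22, voom 0 and no filter 11 (left-out libraries or experiments 0 to 10). For acetylcholine genes the first 2 called 2 each (0 to 0). For the IL-17 family they called 2 and 3, and the replicate block, voom and library totals called 0 (0 to 0). For microvillus genes they called 3 and 6, voom 0 and no filter 3 (0 to 1). For kinases and adaptors they called 7 and 8, voom 0, no filter 4 and a mean of at least 1 CPM 2 (0 to 1). For the L1 family they called 1 each (0 to 0). The cause of these changes was not tested.

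With the replicate block 73 genes passed, including Avil but not Chat among the 9, and 6 of the tuft cell programme (Gnb3, Gng13, Hepacam2, Rgs13, Sh2d7 and Trpm5). Apart from the calls named here and beside the results, the paired fit changed the number of calls in none of the lists.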
